A study of Mus musculus with 42 samples.

Results

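The genes described here are 50 genes of DNA replication and mitosis, chosen by gene name from a count table of 54532 genes. Of these, 30 act in DNA replication and the transition into it, and 20 act in mitosis. All 50 passed the filter on low counts, as did 17648 genes in all, and the rule that picks the members uses names and no measured value. The names themselves were chosen with earlier results of these data known. Bulk RNA sequencing was done on bone marrow-derived macrophages, cells that grow out of whole bone marrow in culture under macrophage colony-stimulating factor.

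The cells came from wild-type C57BL/6 males of 2 ages, 10 to 12 weeks for the young and 18 to 20 months for the aged, and each age had the same 6 treatments, which gives 12 groups and 42 libraries. Controls were kept for 24 h in 0.1% normal saline, with collection on day 3. The β-glucan groups received 5 µg/mL of this fungal cell-wall sugar and were collected at 4 h, at 24 h, or 3 days after a 24 h exposure (called day 3 below). One LPS group received 100 ng/mL bacterial lipopolysaccharide for 4 h with no earlier β-glucan (naive), and a second received the same LPS 3 days after β-glucan (primed). Each group had 3 libraries, except for young control and young naive LPS with 6 each. The labels call the replicates biological but do not say whether they came from separate mice, so p-values measure the spread between these cultures. Control and day 3 cultures share their collection day. No saline group at 4 h or 24 h is among the 12, and the labels do not give the culture time of naive LPS cells, so treatment and time in culture cannot be told apart there.

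A cell copies its genome once per division. Origins are first licensed by the MCM2 to MCM7 helicase, loaded by CDC6 and CDT1. CDK2 with cyclin E then fires them, and E2F transcription factors drive most of the genes needed for this phase, while a later wave of genes for cyclin B, mitotic kinases and the spindle depends on the MuvB complex with FOXM1 and B-MYB. Macrophages in culture divide in response to macrophage colony-stimulating factor, and LPS is known to stop that division.

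Total counts ran from 39850835 to 67347866 per library, and levels are given as CPM, read counts relative to the library total after TMM scaling. The macrophage genes Lyz2, Cd68, Adgre1 and Csf1r were at 921 CPM or more in every library. Ly6g, Cd3e, Nkg7 and Hba-a1, which define neutrophils, T cells, natural killer cells and erythroid cells, were at 0 in all 42. Other genes of these lists were detected at low levels: the 7 neutrophil markers summed to 1.52 to 4.9 CPM, mostly S100a8, the 5 markers of T and natural killer cells to 0.606 CPM at most, and the erythroid Klf1 reached 0.24 CPM. Among 8 markers of stem and progenitor cells the summed level was 6.12 to 29.1 CPM, mostly from Cd34, and Mpo and Elane were at 0 in 40 and 41 libraries. The stromal collagen genes Col1a1 and Col1a2 were at 6.2 to 55.2 CPM, while Col3a1, Pdgfra, Dcn and Lum reached 4.78, 2, 0.86 and 0.28. The 6 stromal markers summed to 16.6 to 21.8 CPM in young controls 1 to 3 and 55.1 to 60 in 4 to 6. In aged controls the sum was 31.4 to 101 CPM. The part of these other cells in the results below was not tested.

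Promoters of 6 members are shown because their responses to LPS differed. All but that of Pcna carry letters that mark the replication or mitosis programme, an E2F-type or CHR-type motif. Each is RefSeq sequence of the GRCm38.p6 build, 250 bases before to 50 bases after the start site, on the strand of the gene. In the first 3, which belong to replication genes that fell under LPS, capitals mark an E2F-type motif on either strand (TTT followed by CC, CG, GC or GG and then CGC). Cdc6 is at chr11:98907901-98908200, plus strand, Clspn at chr4:126556730-126557029, plus strand, and Mcm3 at chr1:20820263-20820562, minus strand. The fourth is Pcna at chr2:132253131-132253430, minus strand, a replication gene that was not called under LPS and has no such match in this window. In the last pair, from mitosis genes, capitals mark a CHR-type motif on either strand (TTTGAA or TTTAAA). Cdc20 at chr4:118437294-118437593, minus strand, fell under LPS, and Ube2c at chr2:164769679-164769978, plus strand, was not called.
Cdc6: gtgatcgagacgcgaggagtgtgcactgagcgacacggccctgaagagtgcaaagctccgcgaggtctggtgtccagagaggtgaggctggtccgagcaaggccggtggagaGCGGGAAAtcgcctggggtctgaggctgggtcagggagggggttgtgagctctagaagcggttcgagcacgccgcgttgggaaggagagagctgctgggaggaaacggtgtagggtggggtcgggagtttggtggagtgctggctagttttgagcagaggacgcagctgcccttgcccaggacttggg
Clspn: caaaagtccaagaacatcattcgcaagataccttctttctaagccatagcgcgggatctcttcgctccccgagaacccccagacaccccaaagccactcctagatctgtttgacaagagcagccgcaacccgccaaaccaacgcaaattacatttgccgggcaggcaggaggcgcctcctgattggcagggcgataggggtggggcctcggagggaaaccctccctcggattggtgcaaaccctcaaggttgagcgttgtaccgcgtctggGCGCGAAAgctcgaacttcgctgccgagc
Mcm3: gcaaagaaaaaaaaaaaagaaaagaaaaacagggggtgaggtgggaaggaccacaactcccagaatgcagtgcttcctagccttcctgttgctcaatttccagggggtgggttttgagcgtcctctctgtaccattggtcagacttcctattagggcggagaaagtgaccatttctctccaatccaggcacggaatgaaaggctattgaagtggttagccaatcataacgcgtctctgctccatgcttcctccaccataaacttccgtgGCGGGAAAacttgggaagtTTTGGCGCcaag
Pcna: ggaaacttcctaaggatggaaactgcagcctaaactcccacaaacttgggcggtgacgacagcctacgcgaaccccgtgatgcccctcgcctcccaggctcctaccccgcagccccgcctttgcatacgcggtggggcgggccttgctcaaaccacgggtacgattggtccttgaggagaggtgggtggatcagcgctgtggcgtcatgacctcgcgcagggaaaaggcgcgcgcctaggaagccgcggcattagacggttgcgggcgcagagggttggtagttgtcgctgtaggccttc
Cdc20: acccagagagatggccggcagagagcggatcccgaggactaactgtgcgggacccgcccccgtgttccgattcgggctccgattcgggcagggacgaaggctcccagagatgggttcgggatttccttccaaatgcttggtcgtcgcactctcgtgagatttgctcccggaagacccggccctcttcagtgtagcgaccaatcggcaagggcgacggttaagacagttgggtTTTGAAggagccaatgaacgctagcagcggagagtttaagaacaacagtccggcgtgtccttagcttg
Ube2c: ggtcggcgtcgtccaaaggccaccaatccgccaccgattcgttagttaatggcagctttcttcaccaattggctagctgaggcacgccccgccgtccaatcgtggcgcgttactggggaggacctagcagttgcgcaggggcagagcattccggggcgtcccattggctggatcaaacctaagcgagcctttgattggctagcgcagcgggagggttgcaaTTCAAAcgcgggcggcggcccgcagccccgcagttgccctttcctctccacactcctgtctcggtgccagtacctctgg

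Of the 50 members, 40 had a promoter in the table, 25 replication and 15 mitosis genes. The E2F-type motif was in 12 of the 25 replication genes and in 1 of the 15 mitosis genes (Cdk1), against 2.6% of 27025 genes with a promoter (2.26% of 32851 promoters). A second form of it (TT followed by CC, CG, GC or GG and then CGCC), which overlaps the first, was in 13 and 2, against 4.59% of genes. The CHR-type motif was in 14 of 15 mitosis genes and in 8 of 25 replication genes (32%), against 30.6% of genes, so the share of the replication genes is near that of all genes. The CCAAT box, on either strand, was in 17 and 14, against 41.1%. A match describes these letters in this window and not binding.

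**Figure D1:**
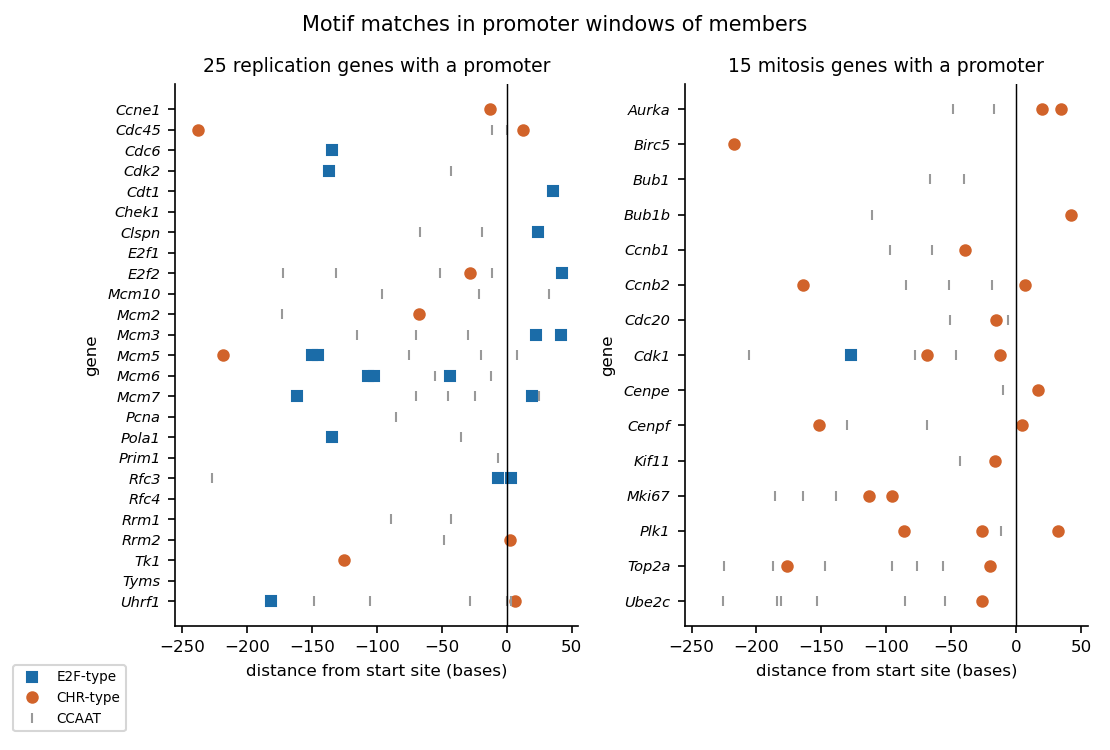
Positions of motif matches in the promoter windows of 25 replication genes (left) and 15 mitosis genes (right), as distance in bases from the start site. Squares are E2F-type matches, circles CHR-type matches and ticks CCAAT; squares stand mostly on the left, in 12 genes, and circles on the right, in 14.

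In control cells these genes were well measured, and their levels differed widely. Per length of transcript, young controls had most RNA of Pcna, the sliding clamp of replication, at 160 ± 25.6 RPKM (SD, n = 6), followed by the helicase subunit Mcm6 at 51.4 ± 6.89, the mitotic topoisomerase Top2a at 36.8 ± 8.39 and the helicase subunit Mcm5 at 34.9 ± 5.45. Top2a and Mcm5 did not differ beyond their spread. The lowest was the checkpoint kinase Chek1, at 2.69 ± 0.487 RPKM, next to Cenpf, a kinetochore protein, at 3.41 ± 1.19. Aged controls had the same 3 genes at the top, Pcna at 198 ± 25.7 RPKM (SD, n = 3), Mcm6 at 51.3 ± 7.04 and Top2a at 37.3 ± 8, and Chek1 again at the bottom with 2.77 ± 0.416.

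Between control cultures the mitosis genes spread more widely than the replication genes, a difference that was not tested. The mean log2 CPM of the 30 replication genes was 5.63, 5.61, 5.64, 5.52, 5.39 and 5.84 in young controls 1 to 6 and 5.68, 5.55 and 5.61 in aged controls 1 to 3. That of the 20 mitosis genes was 5.39, 6.21, 5.36, 6.09, 6.12 and 6.23 in the young and 5.29, 6.14 and 6.12 in the aged. Young controls 1 and 3 and aged control 1 were thus low for mitosis genes while their replication genes were within the range of the other controls. The spread over young controls was 0.87 for mitosis genes and 0.46 for replication genes (highest minus lowest mean log2 CPM). Single genes show it: Cenpf was at 32.4 and 34.8 CPM in young controls 1 and 3 and at 49.1 to 81.8 in the other 4, whereas Mcm3 was at 114 to 149 CPM over all 6. Young replicates 4 to 6 of control and LPS form a second set, for which the labels give no reason. With the same shift taken for control and LPS, 1 of the 50 members was called between the sets, against 17.4% of all genes tested. It was Pcna, lower by 0.28 ± 0.09 on the log2 scale in the second (edgeR, adjusted p = 0.0222). A difference in controls alone was not tested. Cdc20 was at 14.4, 27.3 and 15.8 CPM in young controls 1 to 3 and 44.5, 43.9 and 39.8 in 4 to 6. In young LPS it was at 4.85 to 7.15 CPM, and the sets overlapped. For Mcm3 the sets of controls overlapped.

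**Figure D2:**
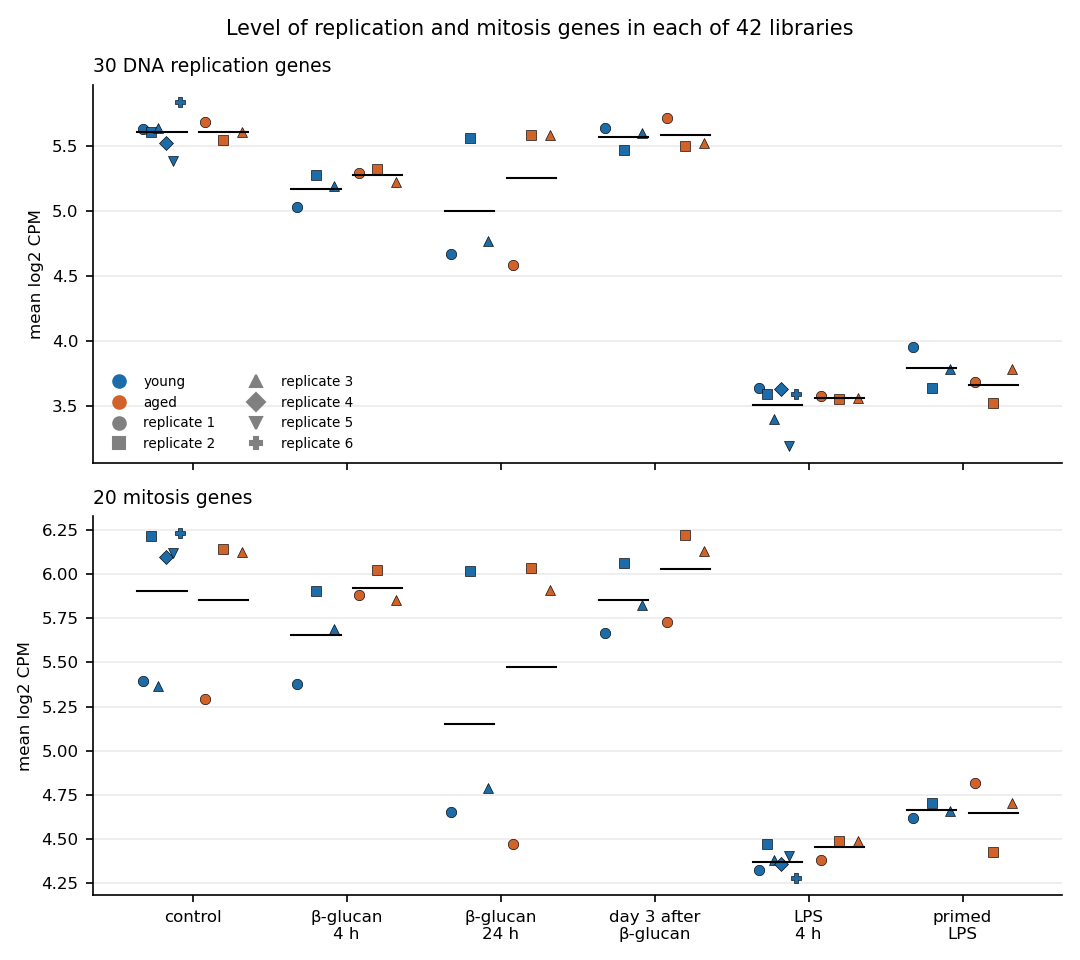
Mean log2 CPM of the 30 replication genes (top) and the 20 mitosis genes (bottom) in each of the 42 libraries by treatment. Colours give age, marker shapes the replicate and black lines the group mean; for replication genes all LPS libraries lie below all others, while for mitosis genes the low 24 h libraries reach the range of the LPS libraries.

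LPS took most of both gene groups down at both ages. In young cells 42 of the 50 members fell and 1 rose 4 h after LPS, against 34.7% of all tested genes lower and 30.3% higher. In aged cells 38 fell and none rose, against 28.9% lower and 26.6% higher. All 38 were among the 42 of young cells. The median log2 fold change over the 50 members was -1.97 in young and -1.83 in aged cells, where that of all genes tested was -0.10 and -0.08. Whether fewer cells held these transcripts or each cell held less of them cannot be told apart in bulk RNA. The 8 stem and progenitor markers summed to 11.3 to 16.7 CPM in young and 8.4 to 10.6 in aged LPS libraries, against 19.7 to 29.1 and 13.3 to 21.9 in controls, with 4, 3, 2 and 4 of the 8 at 0 in all libraries of these groups. The 5 dendritic cell markers went from 0.66 to 1.88 CPM in young controls to 7.71 to 14.7 in young LPS and from 1.07 to 1.47 to 9.65 to 11.9 in the aged, with 1 of the 5 at 0 in each control group. Over all 42 libraries Xcr1 reached 11.8 CPM and Ccr7 4.4, and Zbtb46, Clec9a and Siglech 1.4, 0.83 and 0.14. The 4 endothelial markers went from 2.97 to 5.82 CPM to 26.8 to 35.6 in the young and from 3.21 to 3.5 to 25 to 30.5 in the aged, with Emcn at 0 throughout. This rise was mostly that of Kdr, which reached 38.3 CPM over all libraries, where Cdh5 and Egfl7 reached 1.67 and 1.01. The part of these cells in the result was not tested.

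LPS also changed the make-up of the libraries, so that scaling matters for the size of these changes. TMM factors were 0.67 to 0.78 in LPS libraries and 1.13 to 1.28 in the others. Scaled by total counts instead, the median of all genes moved by -0.80 in the young and -0.73 in the aged comparison. With this scaling 50 members were lower in young and 47 in aged cells. These counts include the shift of all genes, and no share of all genes lower under this scaling is set beside them. Changes above 0 but smaller than that shift turned sign by construction, which were those of Rfc3, Mcm10, Cenpe and Ube2c at both ages and of Pcna in the young. For the rest, the size is relative to the bulk of genes. The strand setting of the counting is not given, and 8 members overlap another expressed gene on the opposite strand, so their values are uncertain: Rfc4 (Eif4a2), Cdc20 (Elovl1), Cdc45 (Ufd1), Ccne2 (Ints8), Gins2 (Gse1), Kif20a (Cdc23), Ccna2 (Exosc9) and Mcm7 (Cops6 and Ap4m1).

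Among the regulators that open the replication phase, E2f2, an activator of replication genes, was the most reduced member. It was at 31.7 to 46.2 CPM (median 36) in young controls and at 0.0304 to 0.598 CPM (median 0.272) in the 6 young LPS libraries, and fell by 6.97 ± 0.29 (SE) on the log2 scale (edgeR, adjusted p = 4.64e-21). In aged cells it was at 31.2, 34.3 and 36.3 CPM in controls and 0.265, 0.328 and 0.275 in LPS, and fell by 6.87 ± 0.40. Groups were far apart, and the mean in LPS was 0.78% and 0.853% of that in control. Its relative E2f1 was less affected, at 38.9 to 63 CPM in young controls and 9.65 to 22 in LPS, and fell by 1.64 ± 0.13 (adjusted p = 3.91e-14).

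The 2 E cyclins, partners of Cdk2, parted. Ccne2 was at 23.5 to 36.8 CPM in young controls and 1.38 to 2.86 after LPS, and fell by 3.82 ± 0.27 on the log2 scale (edgeR, adjusted p = 3.73e-14). Ccne1 was at 13.4 to 22.4 CPM in controls and 14 to 25.8 after LPS, and its change of -0.03 ± 0.16 was not called (adjusted p = 0.888). The LPS libraries thus lay inside and around the range of controls for Ccne1 and wholly below it for Ccne2. Cdk2 itself had the smallest adjusted p of all members, 3.54e-26 in edgeR, with 39.3 to 51.4 CPM in controls, 5.11 to 8.93 in LPS, and fell by 2.82 ± 0.10 on the log2 scale. Uhrf1, which carries DNA methylation over to new strands, was at 105 to 150 CPM in controls and 5.92 to 9.84 in LPS, and fell by 3.90 ± 0.18.

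The licensing factors fell by very different amounts. Cdc6, which loads the helicase, was at 22.1, 19, 20.7, 18, 20.7 and 25.8 CPM in young controls and at 0.269, 0.734, 0.449, 0.649, 0.528 and 0.608 in young LPS libraries. In aged cells it was at 22, 19.1 and 17.1 CPM in controls and 1.09, 0.459 and 0.7 after LPS. No library of either LPS group came near a control, and Cdc6 fell by 5.29 ± 0.30 in young (edgeR, adjusted p = 3.05e-17) and fell by 4.68 ± 0.40 in aged cells (adjusted p = 3.17e-12). Its partner Cdt1 was less affected, with 54.1 to 93.6 CPM in young controls and 33.2 to 51.6 in LPS. It fell by 0.78 ± 0.10 in young (adjusted p = 7.43e-09) and fell by 0.40 ± 0.14 in aged cells (adjusted p = 0.0144), the latter not called without aged control replicate 1 (adjusted p = 0.0636) or without aged LPS replicate 2 (0.0568).

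All 6 subunits of the helicase fell at both ages. Mcm5 was at 118 to 180 CPM (median 136) in young controls, with 34.2 to 53.9 (median 48.1) in LPS, and at 144, 121 and 128 CPM in aged controls, with 48.6, 49.4 and 46.9 in LPS. It fell by 1.57 ± 0.15 in young (edgeR, adjusted p = 6.78e-11) and fell by 1.44 ± 0.21 in aged cells. In young cells Mcm6 fell by 1.08 ± 0.12, the least of the 6, and Mcm2 fell by 2.75 ± 0.17, the most. Cdc45, which joins the helicase to make it active, fell by 2.30 ± 0.15, and Gins1, a part of the same active complex, fell by 1.75 ± 0.18. Mcm10, which helps to start the moving fork, was not called, with 28.2 to 41 CPM in young controls and 32.2 to 45.4 in LPS and a change of 0.32 ± 0.16 that turned to -0.49 when scaled by total counts.

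The machinery of the fork was uneven. Pcna was at 426, 460, 411, 299, 326 and 384 CPM in young controls and 474, 443, 437, 412, 343 and 423 after LPS, and in aged cells at 546, 431 and 451 before and 504, 442 and 429 after. The groups overlapped at both ages, and neither change was called (0.14 ± 0.09, adjusted p = 0.158, and -0.05 ± 0.12, adjusted p = 0.737, in edgeR). Prim1, which makes the primers, was at 16.5 to 20.7 CPM in young controls and 2.04 to 5.23 in LPS, and fell by 2.47 ± 0.17. Rfc3 and Rfc4 both belong to the loader of the clamp. Rfc3 was at 16.2 to 20.6 CPM in young controls and 21 to 31.3 in LPS, and rose by 0.50 ± 0.12 (adjusted p = 0.000314), but with total-count scaling it was lower by 0.31 and with young replicates 1 to 3 alone it was not called. Rfc4 was at 9.92 to 18.3 CPM in controls and 2.01 to 4.31 in LPS and fell by 2.14 ± 0.21, though it overlaps the far more abundant Eif4a2 on the other strand, and reads of the pair may have been shared.

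Genes of nucleotide supply differed likewise. Rrm2, the regulated subunit of ribonucleotide reductase, was at 81.4, 101, 77, 78.2, 66.1 and 103 CPM in young controls and 16.5, 11.2, 9.03, 15.1, 7.15 and 14.4 in young LPS. In aged cells it was at 88.8, 90.2 and 94.3 CPM in controls and at 9.35, 13.9 and 15.6 in LPS. It fell by 2.78 ± 0.22 in young (edgeR, adjusted p = 8.42e-13) and fell by 2.81 ± 0.31 in aged cells, and the libraries stood well apart. Thymidine kinase, Tk1, fell by 2.18 ± 0.20 in young cells, whereas thymidylate synthase, Tyms, was at 18 to 29.3 CPM in young controls and 19.2 to 25.2 in LPS and was not called (-0.12 ± 0.18, adjusted p = 0.574). The checkpoint pair fell: Clspn, the adaptor, was at 33.4 to 62.1 CPM in young controls and 1.44 to 2.93 in LPS and fell by 4.63 ± 0.29, and Chek1, the kinase it activates, fell by 2.44 ± 0.21.

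**Figure D3:**
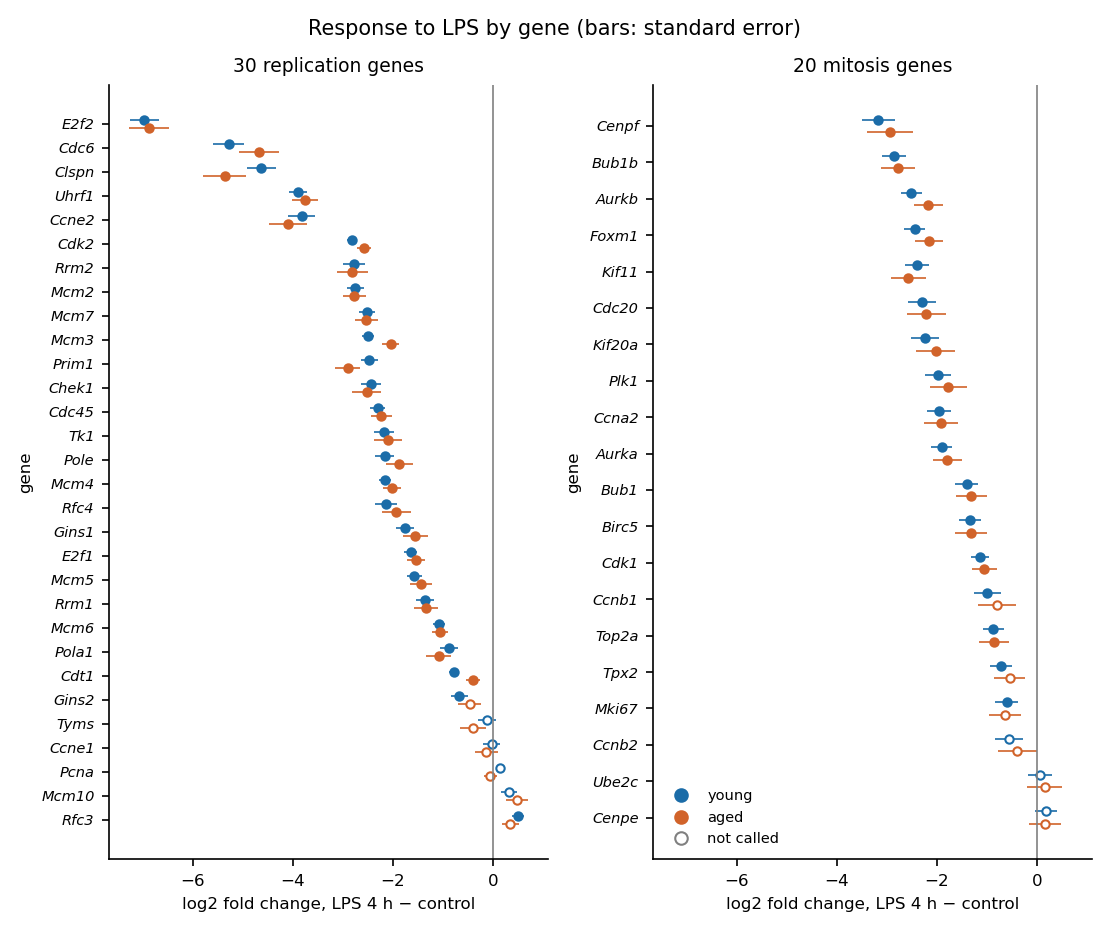
Log2 fold change of each member 4 h after LPS against control in young and aged cells, replication genes left and mitosis genes right, with standard errors; open points were not called at an adjusted p of 0.05. E2f2, Cdc6 and Clspn lie furthest left, and Pcna, Mcm10, Rfc3, Ube2c and Cenpe stand at or right of 0 under TMM scaling.

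Of the 20 mitosis genes, 17 fell in young and 14 in aged cells, with medians of -1.66 and -1.55. In young cells Cenpf was at 32.4 to 81.8 CPM in controls and 4.28 to 7.89 in LPS, and fell by 3.17 ± 0.33 (edgeR, adjusted p = 7.5e-10), the most of the 20. Bub1b, a kinase-like protein of the spindle checkpoint, was at 33.1 to 67.4 CPM and then at 5.44 to 8.16, and fell by 2.85 ± 0.24. Aurkb, the kinase that corrects chromosome attachment, had the smallest adjusted p (1.19e-12) and fell by 2.51 ± 0.21. Foxm1, which drives transcription of the mitosis wave, fell by 2.45 ± 0.21. The spindle motors Kif11 and Kif20a fell by 2.40 ± 0.24 and fell by 2.23 ± 0.28.

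Cdk1, the kinase that starts mitosis, was at 57.2, 85.7, 61.1, 80.8, 80.4 and 92.6 CPM in young controls and 35, 36.3, 28.7, 35.7, 33.2 and 37.2 after LPS. In the aged it was at 61.4, 84 and 84.5 CPM before and 38.6, 37.4 and 35 after. It fell by 1.14 ± 0.17 (edgeR, adjusted p = 7.87e-07) and fell by 1.05 ± 0.24 (adjusted p = 0.000452). Of its B cyclins, Ccnb1 was at 37.2 to 75.7 CPM in young controls and 22.5 to 36.3 in LPS and fell by 1.00 ± 0.27, but was not called in the aged (-0.80 ± 0.38, adjusted p = 0.0709), and Ccnb2 was called at neither age. Plk1, a kinase of mitotic entry, was at 20.3 to 57.1 CPM in young controls and 8.29 to 13.6 in LPS and fell by 1.99 ± 0.26.

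The 2 members that serve the anaphase-promoting complex parted as the E cyclins did. Cdc20, its activator, was at 14.4, 27.3, 15.8, 44.5, 43.9 and 39.8 CPM in young controls and 6.66, 5.84, 5.41, 4.85, 7.15 and 5.04 after LPS, and in the aged at 13.2, 29.3 and 34.3 before and 4.22, 6.63 and 5.7 after. It fell by 2.30 ± 0.28 (edgeR, adjusted p = 1.32e-08) and fell by 2.22 ± 0.39 (adjusted p = 1.23e-05). Ube2c, which supplies its ubiquitin, was at 23.4 to 66.2 CPM in young controls and 33.8 to 52.5 in LPS, with a change of 0.06 ± 0.25 (adjusted p = 0.853). The groups were apart for Cdc20 and overlapped for Ube2c.

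Top2a and Mki67, often used to mark dividing cells, changed little beside Cdc6 or Cenpf. Top2a was at 254 to 451 CPM (median 316) in young controls and 163 to 196 (median 178) in LPS, and fell by 0.88 ± 0.21 (edgeR, adjusted p = 0.000494). Mki67, which coats mitotic chromosomes, was at 297, 537, 285, 305, 330 and 333 CPM in young controls and 296, 245, 271, 190, 217 and 169 after LPS. These groups overlapped, and the fall by 0.61 ± 0.23 (adjusted p = 0.0205) was no longer called with young replicates 1 to 3 alone. In the aged, Mki67 was at 246, 427 and 375 CPM in controls and 219, 230 and 220 in LPS (-0.65 ± 0.32, adjusted p = 0.0879), and its mean in LPS was 66.5% and 63.8% of control in young and aged cells, where that of Cdc6 was 2.56% and 3.87%.

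Other genes of the pathway moved with the members. Their lists, here and below, were chosen with earlier results of these data known, so their counts are no independent support. Of 40 further replication genes, 39 fell and 1 rose in young cells, and the same numbers held in aged cells. Dnmt1, the maintenance DNA methyltransferase, fell by 3.06 ± 0.09 in the young, and Wdhd1, which holds polymerase to the helicase, fell by 3.89 ± 0.16. Of 40 further mitosis genes, 36 fell and 1 rose in young cells and 34 fell and 1 rose in aged cells. The one that rose was Pttg1, securin, the inhibitor of the protease that separates sister chromatids, by 2.64 ± 0.11 in young and 2.33 ± 0.15 in aged cells, whereas that protease, Espl1, fell by 3.08 ± 0.22 in the young. Of 15 upstream regulators 9 fell and 3 rose in the young: Ccnd2, cyclin D2, rose by 4.63 ± 0.17 and Ccnd1, cyclin D1, fell by 2.71 ± 0.13 (edgeR, adjusted p = 1.31e-21 and 2.92e-19).

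The median log2 fold change in young LPS was -2.51 over the 12 replication genes with the first E2F-type form and -2.14 over the 13 without. Of the 12 with it, 11 fell and 1 rose (Rfc3), and of the 13 without it 9 fell and 4 were not called (Pcna, Mcm10, Tyms and Ccne1). This is a description of few genes, with no test. For the 14 mitosis genes with a CHR-type match the range was -3.17 (Cenpf) to 0.18 (Cenpe).

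β-glucan alone gave smaller changes. At 4 h in young cells 9 of 50 members fell and none rose, against 4.61% of all genes lower and 7.45% higher, and all 9 were replication genes: Mcm2, Mcm3, Mcm4, Cdc6, Cdt1, Cdc45, Prim1, Chek1 and Cdk2. The median log2 fold change was -0.47 over the 30 replication genes and -0.19 over the 20 mitosis genes. In the model a term takes up young replicates 4 to 6. It is the same shift for control and naive LPS, so the LPS libraries also move the fitted control level. Fold changes of young β-glucan groups thus refer to that fitted level for replicates 1 to 3, while CPM ranges cover all 6 controls. This matters most for mitosis genes, for which young controls 1 and 3 were low. Whether the 2 groups of genes differ was not tested.

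Mcm3 had the smallest adjusted p, with 114 to 149 CPM in young controls against 84.8, 92.7 and 88 at 4 h, and fell by 0.60 ± 0.15 on the log2 scale (edgeR, adjusted p = 0.0043). Cdc6 was at 9.28, 12.3 and 11.6 CPM, against 18 to 25.8 in controls, and fell by 0.87 ± 0.30 (adjusted p = 0.049). For these genes all 3 treated libraries lay below all 6 controls. Mcm4 fell by 0.59 ± 0.16, Chek1 fell by 0.83 ± 0.25 and Cdt1 fell by 0.43 ± 0.13. No mitosis gene was called, and the nearest was Cenpf at -0.36 ± 0.39 (adjusted p = 0.665).

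Only Mcm3 of the 9 stayed called under every alternative tried, and without young 4 h replicate 1, the lowest of its group, 1 of 50 was called. The count was 4 without young control replicate 1, 3 without control replicate 3, 3 without 4 h replicate 2 and 2 without 4 h replicate 3. Scaling by total counts moved the median of all genes by -0.11 and gave 15. These alternative counts have no share of all genes beside them.

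In aged cells at 4 h no member was called in edgeR, with 6 at an unadjusted p under 0.05 and 2 called in DESeq2, against 6.47% of all genes called. Cdc6 was at 10.5, 13 and 7.57 CPM, against 22, 19.1 and 17.1 in aged controls, a change of -0.91 ± 0.30 (adjusted p = 0.0709). The libraries did not overlap, as in the young. The difference between ages in the 4 h effect was tested and called for none of the 50 in edgeR, with none at an unadjusted p under 0.05 and none in DESeq2, against 0.00567% of all genes, and the gene with the smallest p, Mcm3, differed by 0.31 ± 0.21.

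Further replication genes did the same at 4 h: 10 of 40 fell in young cells, among which Rfc1, the large subunit of the clamp loader, fell by 0.52 ± 0.11 and Wdhd1 fell by 0.86 ± 0.18. In the aged 1 of 40 fell: Timeless, a fork protection protein, fell by 0.73 ± 0.19. Of 40 further mitosis genes none was called at either age in edgeR, with 0 at an unadjusted p under 0.05 in each. Among 15 upstream regulators Ccnd3, cyclin D3, fell by 0.64 ± 0.13 in young and fell by 0.67 ± 0.14 in aged cells, and Cdk6, a partner of D cyclins, rose by 0.54 ± 0.11 and 0.54 ± 0.12 (edgeR, adjusted p = 0.000596 and 0.00278).

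At 24 h of β-glucan the libraries of 1 group were no longer alike. Mean log2 CPM of replication genes was 4.67, 5.57 and 4.77 in young replicates 1 to 3 and 4.58, 5.59 and 5.59 in the aged. For mitosis genes it was 4.65, 6.02 and 4.79 in the young and 4.47, 6.03 and 5.91 in the aged. Young replicates 1 and 3 and aged replicate 1 were thus below every control of their age, and the other 3 were within or near the range of controls. Young controls 1 and 3 and aged control 1, the controls low for mitosis genes, carry the same replicate numbers as these low libraries, and the labels do not say what a number shares. Counted by gene, 47 and 46 of the 50 members were below all young controls in young replicates 1 and 3, and 3 in replicate 2. In the aged, 49 were below all controls in replicate 1, 8 in replicate 2 and 13 in replicate 3. The share over all genes was not computed for these counts. Young libraries were set against 6 controls and aged ones against 3, so the counts cannot be compared between ages.

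The same 3 libraries had the highest level of 25 interferon-stimulated genes among the 24 h libraries, with a mean log2 CPM of 5.31, 3.95 and 4.77 in the young and 5.18, 4.12 and 3.47 in the aged, where controls ran from 2.78 to 3.97. The summed level of macrophage markers in the 24 h libraries, 27188 to 31901 CPM, lay close to that of controls (26447 to 31597 CPM). This sum was mostly Lyz2, at 18137 to 29004 CPM over all libraries, so it says little of the others. Stem and progenitor markers summed to 8.75, 17.4 and 9.48 CPM in young and 6.28, 16.4 and 10.4 in aged 24 h replicates 1 to 3, lowest in the same 3 libraries, against 19.7 to 29.1 and 13.3 to 21.9 in controls, and 5 and 3 of the 8 were at 0 in all young and all aged 24 h libraries. Their part in the result was not tested.

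**Figure D4:**
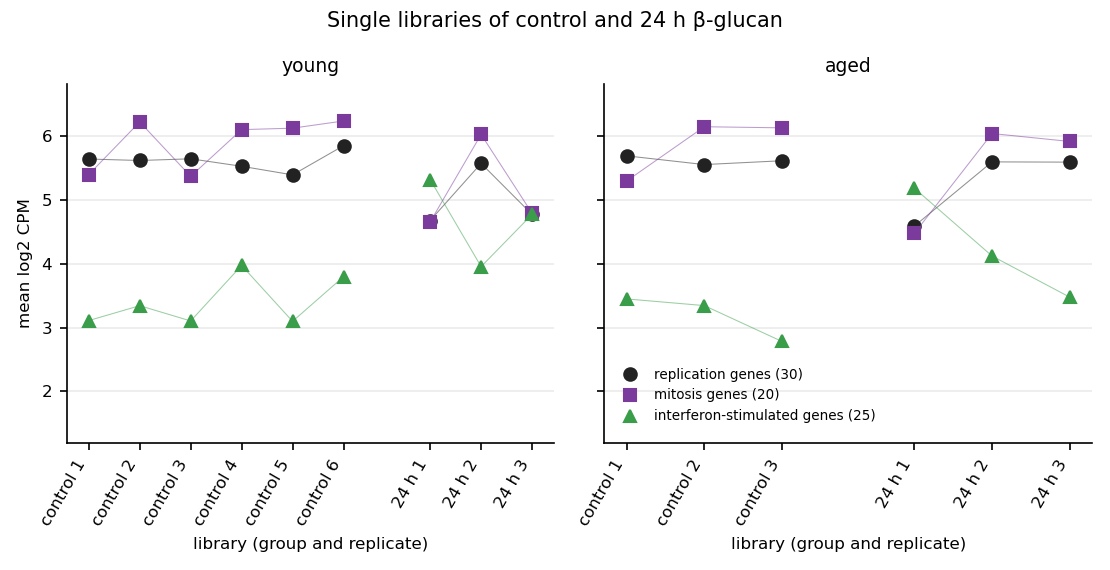
Mean log2 CPM of replication genes, mitosis genes and interferon-stimulated genes in single control and 24 h β-glucan libraries, young left and aged right. In young 24 h replicates 1 and 3 and aged 24 h replicate 1 both cell-division groups are low and the interferon group is high.

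Key members show how wide the split was. Mcm5 was at 68.6, 128 and 72.9 CPM in young 24 h libraries and at 63.1, 138 and 141 in the aged. Cdk1 was at 40.1, 77.9 and 38.6 CPM in the young and 33.8, 87 and 68.8 in the aged. Mki67 was at 129, 372 and 146 CPM in the young, and at 103, 317 and 317 in the aged. For Mki67 the low libraries lay under every LPS library (169 CPM or more).

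Top2a was at 124, 346 and 138 CPM in the young and at 120, 332 and 313 in the aged, and Plk1 at 17.7, 40.3 and 15.6 CPM and at 16.4, 44.2 and 40.2. Ccnb1 was at 23, 68.6 and 23.8 CPM in the young, and at 20.4, 68.8 and 56.4 in the aged. All 3 followed the same split. Not all members did: E2f1 was at 41.1, 42.3 and 41.8 CPM in the young and 39.5, 51.4 and 55.8 in the aged, and Cdt1 at 69.5, 60.3 and 71.1 CPM and at 66.3, 77.6 and 84.4. For these regulators the 3 young libraries were alike and inside the range of controls.

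With this spread 9 of 50 members fell at 24 h in young cells and none rose, against 3.75% of all genes lower and 7.79% higher. They were Mcm3, Mcm4, Mcm5, Mcm6, Cdc45, Rfc4, Pola1, Pole and Prim1, all replication genes. Prim1 was at 8.67, 17 and 8.27 CPM, against 16.5 to 20.7 in controls, and fell by 0.94 ± 0.21 (edgeR, adjusted p = 0.00229). Mcm3 was at 72.9, 107 and 82.5 CPM and fell by 0.61 ± 0.15 (adjusted p = 0.00426). For Mcm3 and Mcm4 all 3 libraries were below all controls, and for the other 7 the replicate 2 library lay among them. No mitosis gene was called, and Mki67 came nearest at -0.86 ± 0.31 (adjusted p = 0.0676).

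A single library decided the count at 24 h. Without young replicate 2 it was 42 of 50, of which 26 were replication and 16 mitosis genes, and without replicate 1 it was 1 and without replicate 3 it was 2. No share of all genes called with a library left out is set beside these counts. The medians over replication and mitosis genes were -0.95 and -1.12 without replicate 2, against -0.60 and -0.53 with all libraries. None of the 9 genes stayed called under every alternative.

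In the aged at 24 h no member was called in edgeR or DESeq2, with 8 at an unadjusted p under 0.05, against 5.22% of all genes called in edgeR. The median over the 50 was -0.29, and without aged replicate 1 it was 0.00. The age difference of the 24 h effect was called for none of the 50 in edgeR or in DESeq2, with none at an unadjusted p under 0.05, against 0% of all genes, and the gene with the smallest p, Cdc45, differed by 0.51 ± 0.27.

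Ccnd2, the D cyclin that LPS raised, was the clearest change among upstream regulators at 24 h, where it fell by 1.67 ± 0.25 in young (edgeR, adjusted p = 1.5e-05) and fell by 0.98 ± 0.24 in aged cells (adjusted p = 0.0105). Of the further replication genes 12 of 40 fell in the young, with Wdhd1 at -0.93 ± 0.18, and of the further mitosis genes 2 of 40, the kinetochore gene Spc24 and the spindle motor Kif15. None of either list was called in the aged in edgeR, with 6 and 2 at an unadjusted p under 0.05.

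At 3 days after β-glucan the members were back near control levels. At day 3 none of the 50 was called at either age in edgeR or DESeq2, with 0 at an unadjusted p under 0.05 in the young and 1 in the aged, against 0.782% and 0.221% of all genes called. The median log2 fold change against control was -0.00 in young and 0.04 in aged cells, with a range over members of -0.35 to 0.23 and -0.35 to 0.40. Mcm5 was at 133, 107 and 125 CPM and Cdk1 at 68.3, 76.5 and 61.2 in the young. Rrm2 was at 92.4, 86.9 and 97.2 CPM in the young and at 100, 91.1 and 90.9 in the aged. Most of these values lay within the range of controls, with Mcm5 in young replicate 2 below it (118 to 180 CPM). No library of these groups was low throughout: between 0 and 15 members were below all controls, against 46 to 49 in the low 24 h libraries. The share over all genes was not computed here either, and aged libraries had 3 controls where young ones had 6.

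Set directly against 24 h, 2 members were higher at day 3 in young cells, Mcm6 by 0.57 ± 0.16 and Prim1 by 0.74 ± 0.22 (edgeR, adjusted p = 0.0371 and 0.0409), against 0.742% of all genes. All 50 had a fold change above 0, with a median of 0.52, and the 3 day-3 libraries were compared with a 24 h group in which 2 were low. Without young 24 h replicate 2 the count was 41, and it was 0 without 24 h replicate 1 or 3 or day-3 replicate 1 or 3, and 1 without day-3 replicate 2. Here too no share of all genes is set beside the counts with a library left out. In the aged none was called in edgeR or DESeq2, with 2 at an unadjusted p under 0.05, against 2.18% of all genes.

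The libraries also lay closer together again at day 3. The mean log2 CPM of mitosis genes was 5.66, 6.06 and 5.83 in young and 5.73, 6.22 and 6.13 in aged replicates 1 to 3, a range of 0.40 and 0.49, where it had been 1.37 and 1.56 at 24 h.

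LPS after β-glucan brought the members down again. Against day 3, 36 of 50 fell and 2 rose in young primed cells, against 26.7% of all genes lower and 24.9% higher, and 38 fell and 2 rose in the aged, against 27.4% and 24.8%. The 2 that rose were Mcm10 and Rfc3 at both ages, whose direction turned when libraries were scaled by total counts. With no filter on low counts Mcm10 was not called at either age and Rfc3 not in the aged, and single libraries left out ended the call of Mcm10 at both ages (adjusted p up to 0.0897 and 0.14 in edgeR) and of Rfc3 in the aged (up to 0.396). E2f2 fell by 6.41 ± 0.39 in young and fell by 7.19 ± 0.41 in aged primed cells, and Cdc6 fell by 4.89 ± 0.41 and fell by 5.11 ± 0.42. Mitosis genes fell with medians of -1.28 and -1.56, where Bub1b fell by 2.39 ± 0.33 and fell by 2.66 ± 0.33. Counting naive and primed cells of both ages, 36 members fell in all 4 comparisons. For this joint count no share of all genes was computed.

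Cdt1 was the exception that primed cells of both ages shared. It was at 33.2, 42.5, 43.5, 37.9, 38.6 and 51.6 CPM in young naive LPS and at 66.7, 83.7 and 69.5 in young primed LPS. In aged cells it was at 47.4, 44.3 and 49 CPM in naive and at 74.8, 83.8 and 81.9 in primed LPS. All primed libraries lay above all naive ones, at a level within the range of controls (54.1 to 93.6 CPM in the young) or above it (55.3 to 66.8 in the aged). It was higher in primed than naive LPS by 0.93 ± 0.13 in young (edgeR, adjusted p = 1.09e-05) and by 0.77 ± 0.14 in aged cells (adjusted p = 0.00226). Against day 3 it did not pass in either (-0.01 ± 0.14 and -0.03 ± 0.14). The call between primed and naive LPS held under every alternative tried, at both ages. The level of Cdt1 against controls and day 3 depends on the TMM scaling, and no other scaling is given for it here. TMM factors were 0.73 to 0.78 in primed LPS and 1.18 to 1.21 at day 3.

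In young cells Cdt1 and Cdk2 were the 2 members called between primed and naive LPS, against 2.44% of all genes higher, and in aged cells Cdt1 was the 1, against 0.606%. Cdk2 was at 5.11 to 8.93 CPM in young naive and 10.5, 8.72 and 10.6 in young primed LPS, and was higher by 0.69 ± 0.14 (edgeR, adjusted p = 0.00154). In the aged it was at 7.14, 8.83 and 7.43 CPM in naive and 7.45, 8.17 and 8.46 in primed LPS (0.05 ± 0.15, adjusted p = 0.965), where the groups overlapped. The difference of this effect between ages was -0.64 ± 0.20, which is not called after adjustment over all genes (adjusted p = 0.564). The other 48 members had log2 fold changes of at most 0.69 in the young, none of them called, with Rrm2 at 22.4, 16.7 and 19.5 CPM in young primed LPS against 7.15 to 16.5 in naive (0.65 ± 0.28, adjusted p = 0.23).

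Of the listed genes outside the members, geminin (Gmnn), the protein that binds and blocks CDT1, was higher in primed than in naive LPS by 1.23 ± 0.25 in young cells (edgeR, adjusted p = 0.00247), and by 1.04 ± 0.28 in aged cells, where it was not called (adjusted p = 0.0689). Dnmt1 was higher by 0.44 ± 0.11 in the young. Ccnd1 was higher in primed LPS at both ages, by 0.74 ± 0.16 (adjusted p = 0.00595) and 0.69 ± 0.18 (adjusted p = 0.0441). No further mitosis gene of 40 was called at either age in edgeR, with 3 in the young and 1 in the aged at an unadjusted p under 0.05.

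**Figure D5:**
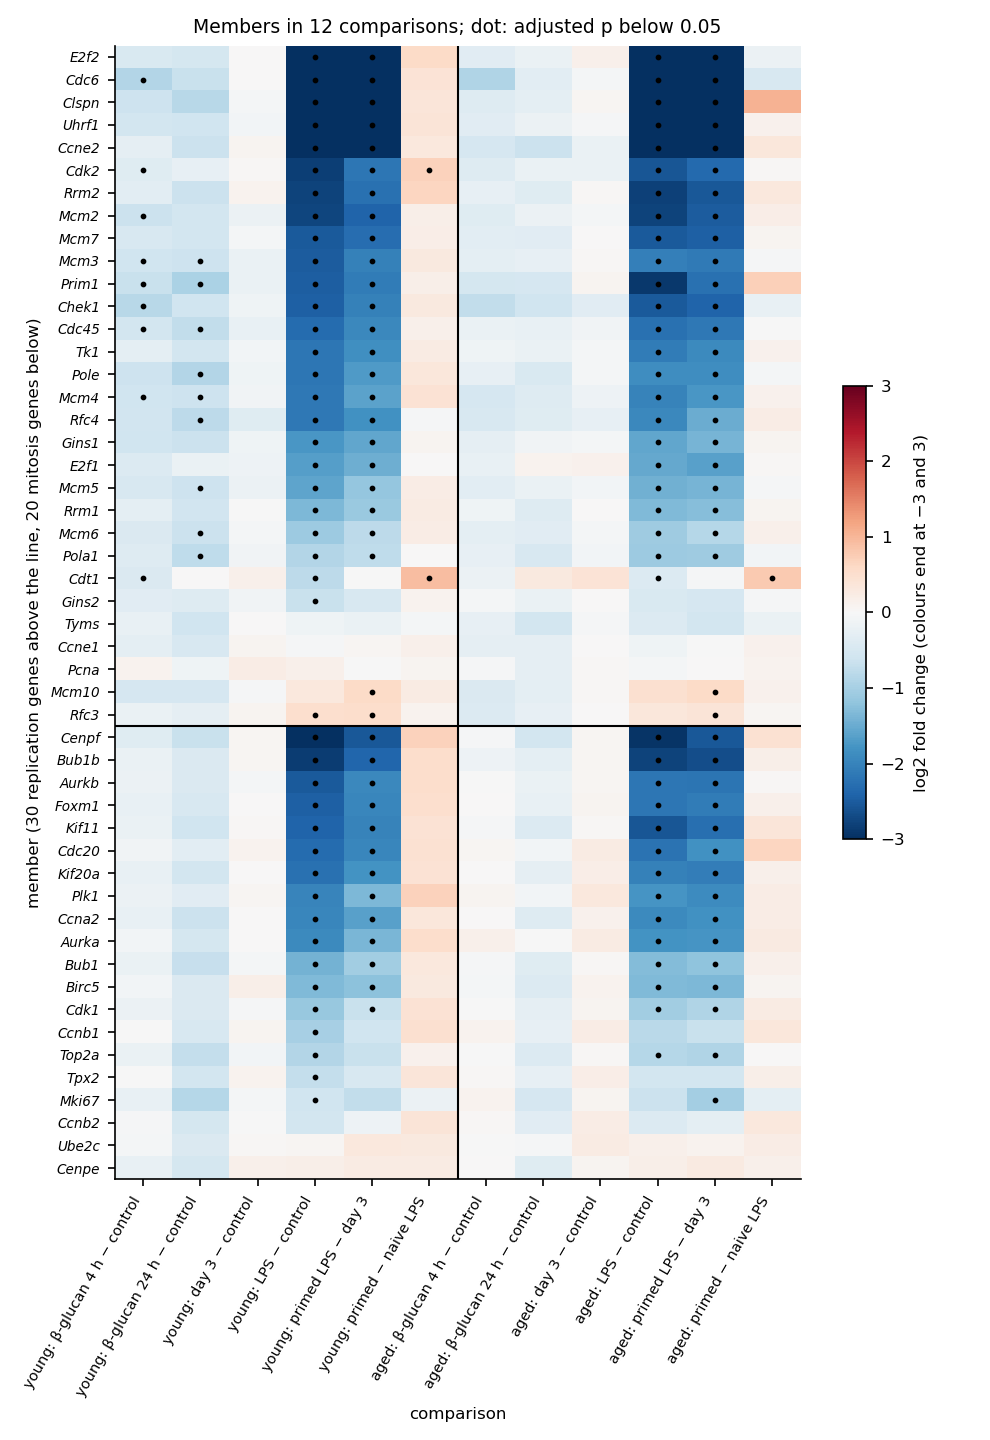
Log2 fold change of the 50 members (rows, 30 replication genes above the line and 20 mitosis genes below) in 12 comparisons (columns), young left and aged right; dots mark an adjusted p below 0.05. Nearly all rows are blue under LPS, pale at 4 h and 24 h of β-glucan, near white at day 3, and Cdt1 stands out in both columns of primed against naive LPS.

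Age made no difference that was called. In the 6 comparisons of aged with young cells at the same treatment none of the 50 members was called in edgeR or DESeq2, and 1 had an unadjusted p under 0.05 in control, naive LPS and primed LPS each and none in the other 3. Of all genes 0.442%, 0.21%, 0.312%, 0.068%, 0.895% and 0.164% were called in control, 4 h, 24 h, day 3, naive LPS and primed LPS. The nearest in control was Pcna, with 0.32 ± 0.11 (edgeR, adjusted p = 0.229) and means of 384 and 476 CPM in young and aged cells. For this comparison the young level was placed midway between the sets. Pcna was at 411 to 460 CPM in young controls 1 to 3 and 299 to 384 in 4 to 6. The age difference of the LPS effect was called for none in edgeR or DESeq2, with 2 at an unadjusted p under 0.05, Mcm3 at 0.45 ± 0.19 and Cdt1 at 0.38 ± 0.17, against 0% of all genes. For the day 3 effect and the effect of priming on LPS no member was called by either tool, with 0 and 1 at an unadjusted p under 0.05, against 0% and 0.00567% of all genes. The standard errors of these differences were 0.15 to 0.97 on the log2 scale, so smaller differences could not be told from the spread of the cultures.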

How the data were processed

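Bulk RNA-seq of bone marrow-derived macrophages was used as a table of raw gene counts that the authors deposited; STAR and the mm10 build are named in the submitters' processing notes, and the counting program and strand setting are not given in the sources used here. The authors also deposited gene lengths, from which RPKM was computed. A deposited FPKM table was not used. One edgeR 4.0.16 quasi-likelihood model (R 4.3.3) took all 42 libraries, with 12 groups and a term for young replicates 4 to 6, TMM scaling and a minimum count of 10 (17648 of 54532 genes, at least 99.98% of counts). Adjusted p-values are Benjamini-Hochberg over all tested genes, called under 0.05, and errors of log2 fold changes are standard errors. The term for young replicates 4 to 6 is the same shift in control and naive LPS. Within the young, and for age differences of an effect, it sets both to a fitted level of replicates 1 to 3. Where aged and young cells are compared in control or naive LPS, the young level is placed midway between the sets. Log2 CPM used a prior count of 2. Total counts of 39850835 to 67347866 set the precision. Members were named where their values carry a comparison, and other listed genes by smallest adjusted p. Members and lists were chosen with earlier results of these data known. Alternatives were other scalings, no filter, DESeq2 1.42.0, other designs and each library left out. Promoters came from RefSeq (GRCm38.p6).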

Additional observations from a re-analysis of the deposited data

Results flagged for a closer look

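In groups of 4 to 10 libraries, 100 sets of values of the members were checked for 1 library far from the rest, and 5 were found; chance alone gives about 1 in 20. In young controls Uhrf1 was at 150 CPM in replicate 6, where the other 5 libraries were at 105 to 117. Mki67 was at 537 CPM in young control replicate 2, against 285 to 333 in the others. In young naive LPS, Bub1b was at 5.44 CPM in replicate 3 (others 7.18 to 8.16), Plk1 at 13.6 CPM in replicate 4 (others 8.29 to 9.72) and Foxm1 at 14.6 CPM in replicate 5 (others 9.33 to 11.2). All 3 remained below every control library.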

How the results depend on the processing

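Under LPS the counts of members called held: leaving out 1 library gave 42 to 44 in young, 37 to 39 in aged, 36 to 38 in young primed and 37 to 40 in aged primed cells, and 38 of the 43 young and 36 of the 38 aged calls held under every alternative. With young replicates 1 to 3 alone Gins2, Rfc3, Ccnb1, Mki67 and Tpx2 were not called. β-glucan counts did not hold. At 4 h in the young (9 members) total-count scaling gave 15, no filter 5, DESeq2 14 and a fit of these groups alone 16, and leaving out 1 library gave 1 to 10. At 24 h in the young (9) the numbers were 15 by total counts, 18 by DESeq2 and 2 for groups alone, and 1 to 42 with 1 library left out. For young day 3 against 24 h (2) they were 0 with no filter, 5 by DESeq2, 1 with no set term and 0 for groups alone, and 0 to 41 with 1 library left out. At 4 h in the aged (0) they were 3 by total counts, 2 by DESeq2, 1 with young replicates 1 to 3 alone and 13 for groups alone. Between young sets (1) DESeq2 gave 3. The cause was not tested. For these alternatives the share of all genes called is not set beside the counts of members.

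Total-count scaling turned the sign in young LPS of Mcm10 (-0.49), Pcna (-0.66), Rfc3 (-0.31), Cenpe (-0.62) and Ube2c (-0.74), in aged LPS of Mcm10 (-0.26), Rfc3 (-0.39), Cenpe (-0.57) and Ube2c (-0.59), and in primed cells of Mcm10 (-0.095 young, -0.076 aged) and Rfc3 (-0.14 and -0.27). Ccne1 in young LPS was 0.018 by DESeq2 size factors, 0.0185 by the DESeq2 test and 0.12 with young replicates 4 to 6 alone, and -0.15 to 0.044 with 1 library left out. Ube2c was -0.014 with no set term, -0.31 with young replicates 4 to 6 alone, and -0.059 to 0.15 with 1 left out. In aged LPS, with 1 library left out, Pcna was -0.13 to 0.054, Cenpe -0.030 to 0.30 and Ube2c -0.17 to 0.45.

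Over all genes replicate numbers did not pair the libraries: same-numbered libraries of an age correlated at -0.0361 to 0.114, and 1 pair was over 0.1. By the mean level of the mitosis genes, though, replicates stood in the same order (1, 3, 2 from low to high) in 7 of the 10 groups of 3 libraries, a hint from the data and not from the labels. With the replicate block the counts were 8 at 4 h, 13 at 24 h and 44 under LPS in the young, 39 under LPS in the aged, and 40 in primed cells of each age. No share of all genes is set beside these counts either.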
